A study of Mus musculus with 44 samples.

Results

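The alpha1 subunits of voltage-gated calcium channels were chosen by their symbols, and all 8 listed genes, Cacna1a, Cacna1b, Cacna1c, Cacna1d, Cacna1e, Cacna1g, Cacna1h and Cacna1i, were found among the 27179 genes of the count files. All 8 passed the filter on low counts in every comparison. Counts came from poly-A RNA sequencing of dorsal hippocampus in 36 libraries, 1 mouse each, from wild-type (WT) mice and mice of genotype Kdm5bDARID/DARID, called mutants here. Mice were naive animals taken from the home cage (0 h) or were taken 1 h or 3 h after contextual fear conditioning with 3 shocks, with 6 mice per genotype and time point, of which 3 were labelled male and 3 female. The mice were 7 to 8 weeks old littermates of heterozygous crosses on a mixed background of C57BL/6J and another inbred strain. The mutant allele lacks exons 2 to 4 of Kdm5b, which encode the ARID domain and part of the JmjN domain of this histone H3K4me3 demethylase. It is constitutive and present in all cells, so that a difference between genotypes could have arisen at any age and in any tissue. The list was drawn up with earlier results of these libraries in view, among them the levels of Cacna1i at 1 h in mutants and of Cacna1h at 3 h in WT, so those contrasts are described here and support nothing.

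The alpha1 subunit is the pore and the voltage sensor of a calcium channel, and it sets the class of current. L-type channels (Cacna1c, Cacna1d) are known for passing calcium signals from the synapse to the nucleus, P/Q-type (Cacna1a) and N-type (Cacna1b) channels trigger transmitter release at presynaptic terminals, and R-type channels (Cacna1e) act in dendrites, spines and terminals. T-type channels (Cacna1g, Cacna1h, Cacna1i) open near the resting potential and support burst firing.

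Library totals ran from 40274435 to 107000233 counts. The median total of the naive group was 66925015 in WT and 65503126 in mutants. After training it was 66003094 (WT) and 66163744.5 (mutant) at 1 h, and 81589026 (WT) and 61390777 (mutant) at 3 h. In 2 libraries, WT 1 h male 1 and mutant 3 h female 2, transcripts that mark sex went against the label. Both were kept under their labels, and some of the results that include them are also given without them. WT groups held 86.5 ± 2.84 CPM (counts scaled to library size; mean ± SD, n = 6) of Kdm5b in naive mice, 90.5 ± 5.93 after 1 h and 89.2 ± 2.29 after 3 h, and the mutant groups, in the same order, 80.5 ± 3.96, 86.6 ± 3.39 and 84.3 ± 5.42 CPM. The count runs over the whole gene, of which the allele lacks only exons 2 to 4, so it checks the genotype labels little. Of the marker lists, the one for choroid plexus, a tissue that borders the hippocampus, varied the most, with a summed level of 42.4 to 7934 CPM across the 36 libraries.

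All 8 subunits were well above the detection limit, with the lowest count of any of them in any library at 2662, for Cacna1d. To compare genes, CPM was divided by the length of all annotated exons of the gene (CPM per kb). On that scale Cacna1h, a T-type subunit known from dentate granule cells, was at 20.4 ± 2.92 CPM per kb (SD over the 36 libraries), Cacna1a at 19.7 ± 1.79 and Cacna1e at 18.6 ± 1.42. Next came Cacna1b at 12.1 ± 0.774, Cacna1i at 9.08 ± 0.928 and Cacna1g at 7.95 ± 0.889, and the L-type subunits were lowest, with Cacna1d at 5.68 ± 0.378 and Cacna1c at 4.75 ± 0.512 CPM per kb.

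The top 3 could not be put in order within their spread. Cacna1h was above Cacna1a in 22 of 36 libraries and Cacna1a above Cacna1e in 25 of 36. The step from Cacna1e to Cacna1b was the only one in this order with ranges that did not overlap, at a ratio of 1.55 (range over libraries 1.37 to 1.75). Below it, Cacna1b exceeded Cacna1i in 35 of 36 libraries, Cacna1i exceeded Cacna1g in 31, Cacna1g exceeded Cacna1d in 36 and Cacna1d exceeded Cacna1c in 35.

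The order depended on the length used. Divided by the longest transcript in place of all exons, the levels were 31.5 CPM per kb for Cacna1e, 28.4 for Cacna1a and 24.2 for Cacna1h, which turns the order of the top 3 around, while Cacna1e stayed above Cacna1b in 36 of 36 libraries. On the same scale Cacna1i (9.15) and Cacna1g (9.61) changed places, as did Cacna1d (7.42) and Cacna1c (7.64). The union of exons is 25228 bases for Cacna1e and 21191 bases for Cacna1c, against 9763 to 12621 bases for the other 6 genes, so division by it lowers these 2 genes the most. The other 2 alpha1 genes, Cacna1f of the retina and Cacna1s of skeletal muscle, were close to the bottom at 0.0791 and 0.0760 CPM per kb.

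**Figure D1:**
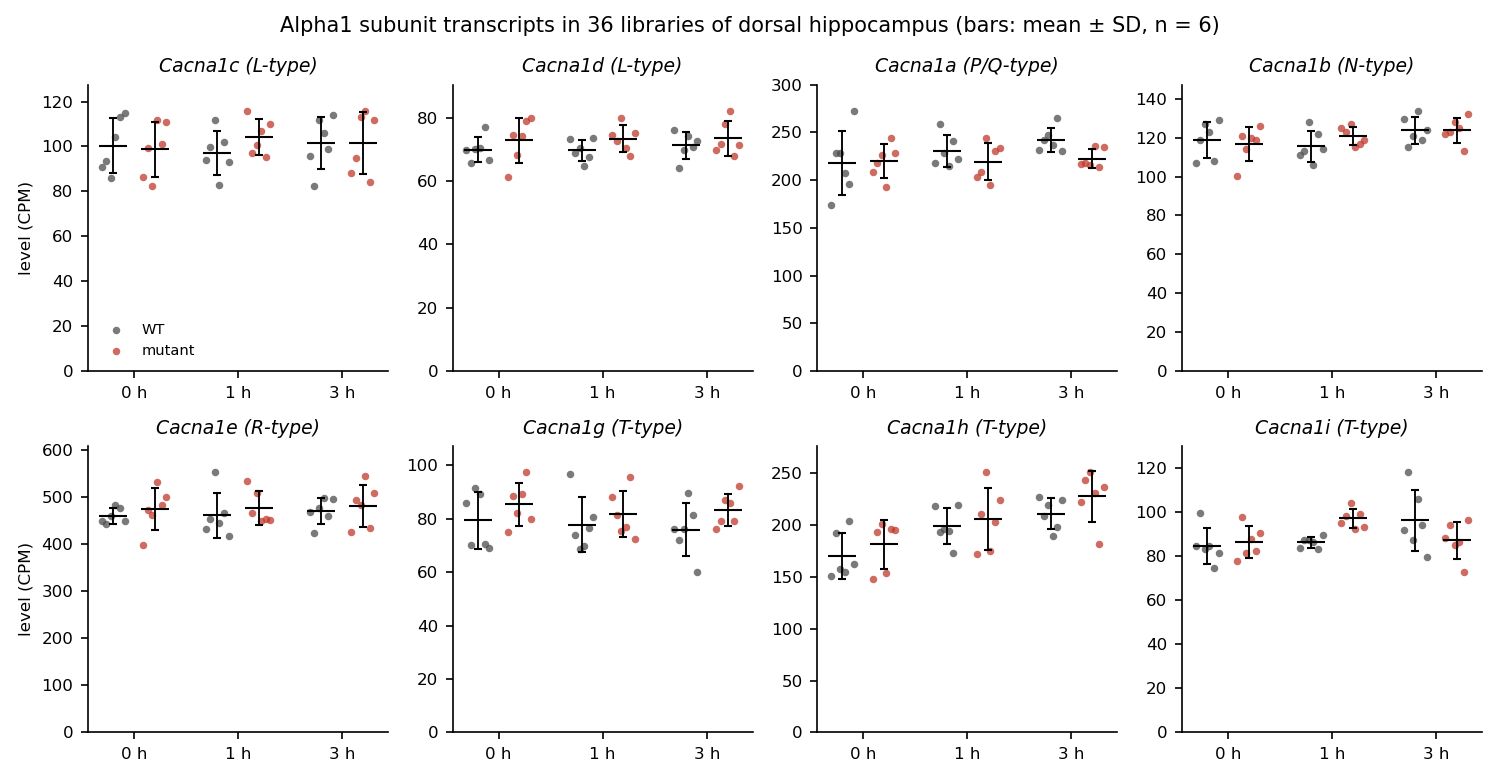
Levels of the 8 alpha1 subunit transcripts in CPM (counts scaled to library size, y axis, from 0), 1 point per library, in WT (grey) and mutant (red) at 0, 1 and 3 h; lines and bars are the mean and SD over 6 libraries. The points of Cacna1h at 0 h and 3 h overlap in both genotypes, with means of 170.3 and 211 CPM in WT and 181 and 228 CPM in mutants, and at 1 h the mutant points of Cacna1i (92.3 to 104 CPM) lie above the WT points (82.9 to 89.3 CPM).

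The genes lie apart on separate chromosomes (GRCm38/mm10, GENCODE vM21). Cacna1a (gene 12286) is at chr8:84388440-84640246 on the plus strand, Cacna1b (12287) at chr2:24603887-24763152 on the minus strand, Cacna1c (12288) at chr6:118587240-119196418 on the minus strand and Cacna1d (12289) at chr14:30039939-30491455 on the minus strand. Cacna1e (12290) is at chr1:154390731-154884501 on the minus strand, 19.755 Mb from Kdm5b, and is the only one on the chromosome of the targeted gene. Cacna1g (12291) is at chr11:94408391-94474198 and Cacna1h (58226) at chr17:25374285-25433783, both on the minus strand, and Cacna1i (239556) is at chr15:80287238-80398279 on the plus strand. Cacna1a, Cacna1b, Cacna1c, Cacna1d and Cacna1h overlap other annotated genes (Gm16183, Gm13459, Dcp1b, Chdh and Dcp1a, and Tpsg1), and since the strand setting of the counting is not given in the sources used here, reads of such pairs may be shared or lost.

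By class, and as CPM per kb of exon, the 3 T-type genes held 38.0% of the summed alpha1 level (range 32.6% to 41.2% over 36 libraries), P/Q-type 20.1%, R-type 19.0%, N-type 12.3% and L-type 10.6%. Undivided by length the R-type gene led, with 34.7% against 27.2% for T-type, and by the longest transcript the shares were 24.2% and 32.9%. In WT the T-type share was 36.3% ± 2.11 (SD, n = 6) when naive, 37.9% ± 2.63 after 1 h and 38.3% ± 1.51 after 3 h, and in mutants it was 37.2% ± 1.33, 39.0% ± 1.53 and 39.5% ± 1.5. Within the T-type sum, Cacna1h held 51.4% in WT and 51.8% in mutants at 0 h and 55.7% and 57.7% at 3 h, while Cacna1g went from 23.2% to 19.3% and from 23.7% to 20.4%. These shares are given as a description, with no test.

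**Figure D2:**
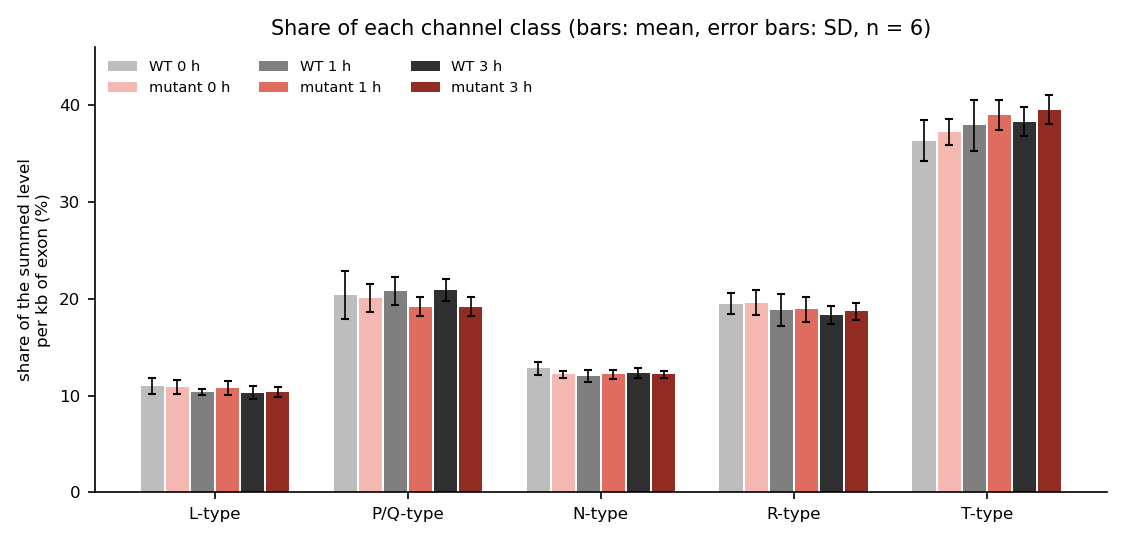
Share of each channel class in the summed alpha1 level (y axis, percent of CPM per kb of exon, from 0); bars are means of 6 libraries and error bars SD, in WT (grey) and mutant (red) with darker bars at later times. The T-type bars run from 36.3% in WT at 0 h to 39.5% in mutants at 3 h, and the P/Q-type bars lie between 19.2% and 20.9%.

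The question of the study was whether loss of the ARID region of Kdm5b changes transcription in the hippocampus in the naive state and after learning. Among the alpha1 subunits, genotype differences were small at all 3 time points. Expressed as mutant over WT, the log2 fold changes ran from -0.14 to 0.17 over 24 values (8 genes, 3 time points), with 95% confidence intervals within -0.34 and 0.31. With edgeR and Benjamini-Hochberg adjustment over all genes tested, 0 of 8 subunits were called at an adjusted p under 0.05 at each time point. Of all genes tested, 0% were called at 0 h and at 1 h and 0.0115% at 3 h. At an unadjusted p under 0.05 the subunits were 0, 1 and 1 of 8 at 0, 1 and 3 h, where the shares of all genes were 6.15%, 8.61% and 6.36%. DESeq2, the other tool, called 0, 1 and 0 of 8, and 16, 98 and 50 of all genes. The median of the 8 log2 fold changes was 0.03, 0.07 and 0.02 at 0, 1 and 3 h, against 0.00 over all genes tested at each of the 3.

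**Figure D3:**
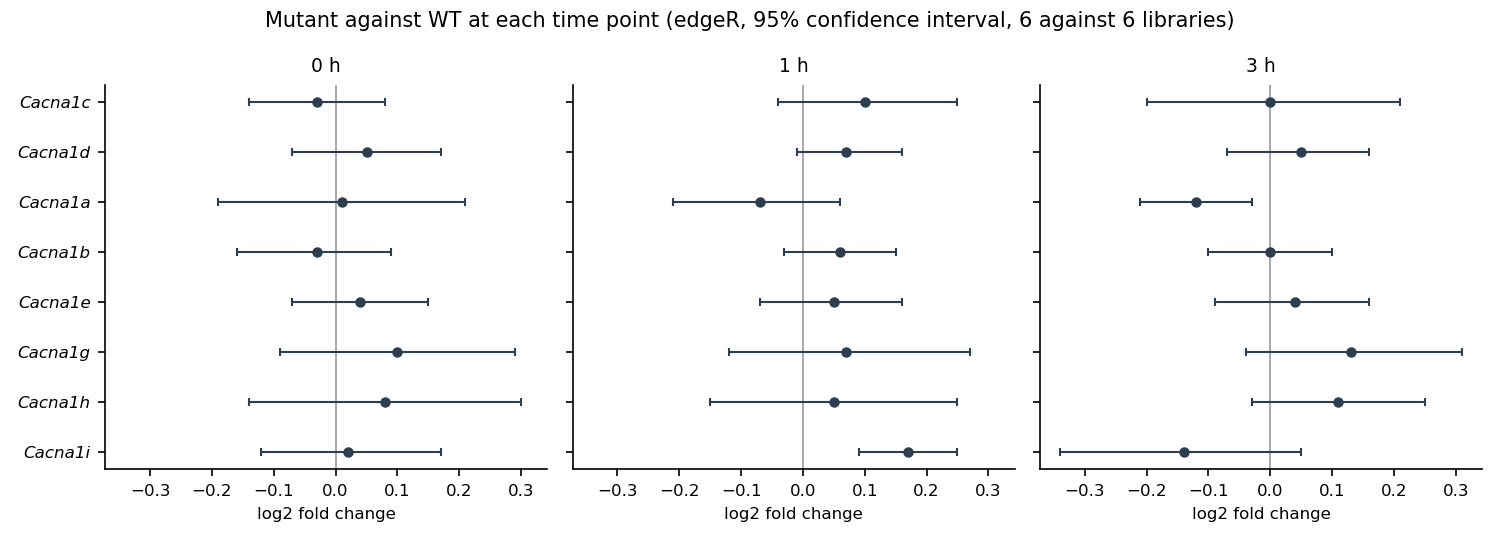
Mutant over WT log2 fold change (x axis) for each subunit (rows) at 0, 1 and 3 h, from edgeR on 6 against 6 libraries; points are estimates and bars 95% confidence intervals. Of 24 intervals, those of Cacna1i at 1 h (0.09 to 0.25) and Cacna1a at 3 h (-0.21 to -0.03) lie apart from 0.

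Cacna1i, a T-type subunit best known from the reticular thalamus, had the lowest unadjusted p of the 8 between genotypes at 1 h. Its lowest, median and highest levels were 82.9, 86.8 and 89.3 CPM in WT and 92.3, 96.5 and 104 CPM in mutants at 1 h. Every mutant value lay above every WT value, an order shared by 0.330% of all genes tested, and 0.585% did not overlap in either direction. The log2 fold change was 0.17 (SE 0.04, 95% interval 0.09 to 0.25), or 1.12-fold, with an edgeR unadjusted p of 0.000283 and adjusted p of 0.207. DESeq2 gave the same log2 fold change of 0.17 and an adjusted p of 0.00805, so the call rests on the tool. Over the alternative settings the log2 fold change ran from 0.16 to 0.17 and the unadjusted p from 1.62e-05 to 0.0218. Without the WT library of discordant sex it was 0.16 (SE 0.04, edgeR adjusted p 0.123).

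This separation was not there at the other times. In naive mice Cacna1i ran from 74.7 over a median of 83.9 to 99.5 CPM in WT, and from 77.8 over 84.9 to 97.5 CPM in mutants, with full overlap (log2 fold change 0.02, SE 0.07, unadjusted edgeR p 0.725). At 3 h it ran from 79.7 over 93.0 to 118 CPM in WT and from 72.7 over 87.1 to 96.3 CPM in mutants, with the mutants lower by estimate (-0.14, SE 0.09, unadjusted p 0.141) and overlapping WT. Without WT 3 h male 2 the value was -0.08 (SE 0.08, unadjusted edgeR p 0.35). Both values include mutant 3 h female 2, of discordant sex, the lowest mutant library at 72.7 CPM. WT at 1 h had the smallest spread of the 6 groups, with an SD of 2.48 CPM against 13.9 CPM in WT at 3 h. The genotype difference in the change from 0 h to 1 h, tested as an interaction over 24 libraries, was 0.14 (SE 0.08, 95% interval -0.01 to 0.30, unadjusted edgeR p 0.0734, adjusted p 0.999), and that from 0 h to 3 h was -0.17 (unadjusted p 0.154). In these interactions 0 of 8 subunits were called, and 0 of 8 had an unadjusted p under 0.05, with 0% of all genes called and 3.78% and 1.52% at an unadjusted p under 0.05, and DESeq2 called 0 of 8.

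The choroid plexus list was lower in mutants by estimate at each time, and no gene of it was called. Its summed level at 1 h was 103, 1035 and 4503 CPM in WT and 58.1, 124 and 1109 CPM in mutants (lowest, median, highest), its 5 genes had a median log2 fold change of -2.21, and 3 of 5 passed an unadjusted p of 0.05 where 8.61% of all genes passed in either direction. At 0 h, where Cacna1i was at 0.02, the median was -2.32 and 1 of 5 passed (6.15% of all genes), and at 3 h it was -0.64 with 0 of 5 (6.36%). Across the 36 libraries, after subtracting group means, Cacna1i and this list had a correlation of -0.03, while it was 0.48 for the neocortex list and 0.41 for the CA1 list. Such correlations within groups do not bear on shifts between groups. Between genotypes at 1 h the median log2 fold changes of the neocortex and CA1 lists were 0.02 and -0.02. The part of these tissues in the Cacna1i values was not tested. Fewer cells of a type and less RNA per cell cannot be told apart in bulk tissue, here and below.

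The promoter of Cacna1i is shown because this gene had the only non-overlapping levels between genotypes, and because Kdm5b, which the allele alters, encodes a demethylase of a histone mark found at promoters. In RefSeq (GRCm38.p6) it spans chr15:80286988-80287287 on the plus strand, from 250 bases before to 50 after the start, with the motif CGTCA in capitals, the core of the CRE motif of CREB read on the other strand (TGACG).

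Cacna1i: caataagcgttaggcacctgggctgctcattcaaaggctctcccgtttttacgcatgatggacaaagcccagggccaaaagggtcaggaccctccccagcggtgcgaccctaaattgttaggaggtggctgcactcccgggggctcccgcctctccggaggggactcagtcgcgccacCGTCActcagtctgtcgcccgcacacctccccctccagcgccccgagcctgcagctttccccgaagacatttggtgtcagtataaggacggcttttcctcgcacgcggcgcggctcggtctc

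This stretch is 62.7% G and C, with 23 CpG dinucleotides. The CGTCA match begins 72 bases before the start. TGACG, on either strand, was found in 3 of 8 promoter entries, those of Cacna1b and Cacna1i and 1 of the 3 of Cacna1c, and in 20.8% of all 32851 promoters of that length. The 8 entries also include 1 of Cacna1e and 2 of Cacna1d, and Cacna1a, Cacna1g and Cacna1h were not looked at. The whole CRE, TGACGTCA, was in 0 of 8 and 1.79% of all, the AP-1 motif TGANTCA in 0 of 8 and 7.81%, and the Egr motif GCGNGGGCG in 3 of 8 and 5.55%. The entries with the Egr motif, of Cacna1b, Cacna1c and Cacna1d, are 72.3%, 81.3% and 87.3% G and C. The median over all promoters is 52.7%, and the part of base composition was not tested. Matches are letters in a window and no evidence of binding.

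Cacna1a, whose channel triggers fast release at most central synapses, was the other subunit with an interval apart from 0 between genotypes, at 3 h. Its levels at 3 h were 231, 239 and 265 CPM in WT and 214, 218 and 236 CPM in mutants (lowest, median, highest), and 4 of the 6 mutants lay under the lowest WT mouse. The log2 fold change was -0.12 (SE 0.04, unadjusted edgeR p 0.0126, adjusted p 0.69), with 3.09% of all genes lower at an unadjusted p under 0.05. Without the mutant library of discordant sex it was -0.10 (SE 0.04, unadjusted p 0.029). At 0 h the levels of 174, 218 and 273 CPM in WT and 193, 222 and 244 CPM in mutants overlapped (log2 fold change 0.01), and at 1 h it was -0.07 (SE 0.06). The interaction with time was -0.09 (SE 0.12) for 1 h and -0.14 (SE 0.10) for 3 h. Between genotypes at 3 h, 5 of 5 CA1 (median -0.11), 4 of 4 neuron (-0.05) and 5 of 5 choroid plexus markers (-0.64) were below 0. Above 0 were 5 of 5 markers each of thalamus (0.12), striatum (0.16) and oligodendrocytes (0.28). None of these passed an unadjusted edgeR p of 0.05, where 6.36% of all genes passed. The part of these markers in the Cacna1a value was not tested.

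Cacna1g, a T-type subunit known for burst firing in the thalamus, was higher in mutants by estimate at all 3 times, with log2 fold changes of 0.10 (SE 0.09), 0.07 (SE 0.09) and 0.13 (SE 0.08). The 1 h value was 0.15 (SE 0.07) without WT 1 h male 1, the library of discordant sex, and 0.01 (SE 0.08) without mutant 1 h female 2. Its levels overlapped each time, for example at 3 h with 60.1, 76.2 and 89.7 CPM in WT and 76.3, 82.5 and 92.2 CPM in mutants (lowest, median, highest). Over all time points, in 18 against 18 libraries, the difference was 0.10 (SE 0.05, 95% interval -0.00 to 0.21, unadjusted edgeR p 0.0513, adjusted p 0.331), and 0.13 (SE 0.05, unadjusted p 0.011, adjusted p 0.141) without the libraries of discordant sex. In this fit no marker of thalamus, striatum or choroid plexus was called, and the members of each list had the same sign: 5 of 5 thalamus markers (median 0.24, 2 at an unadjusted p under 0.05) and 5 of 5 striatum markers (median 0.21, 3) were above 0, and 5 of 5 choroid plexus markers were below 0 (median -1.81, 5), where 15.2% of all genes passed. Of astrocyte markers 4 of 4 were above 0 (median 0.08, 2), and Gja1 was called (0.13, SE 0.03, adjusted p 0.0352), and 5 of 5 oligodendrocyte markers were above 0 (median 0.12, 0). Within groups, over the 36 libraries, Cacna1g had r = -0.36 (rho -0.44) with the thalamus list, 0.01 with the striatum list, -0.11 with the choroid plexus list, -0.18 with the astrocyte list and -0.32 with the oligodendrocyte list, which does not bear on shifts between groups. The part of these markers in the Cacna1g value was not tested. Cacna1d, an L-type subunit that opens at lower voltage than Cacna1c, gave 0.06 (SE 0.03, unadjusted p 0.0639, adjusted p 0.36) in the same fit. In the fit of all 36 libraries 0 of 8 subunits were called and 0 of 8 were at an unadjusted p under 0.05, against 1.30% and 15.2% of all genes, and DESeq2 called 0 of 8. The other estimates in that fit were 0.01 for Cacna1b, 0.02 for Cacna1i, 0.03 for Cacna1c, 0.04 for Cacna1e, 0.08 for Cacna1h and -0.06 for Cacna1a.

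After fear conditioning, Cacna1h had the highest estimates of the 8 subunits at 3 h, in both genotypes. In naive WT mice its lowest, median and highest levels were 151, 160.1 and 204 CPM. After 1 h they were 173, 195 and 219 CPM, and by 3 h 189, 214 and 227 CPM. Naive mutants held 148, 194 and 201 CPM, those of the 1 h group 172, 207 and 251 CPM and those of the 3 h group 182, 234 and 251 CPM. At 3 h, 4 of 6 WT libraries were above all 6 naive WT libraries and 5 of 6 mutant libraries were above all 6 naive mutant libraries, with the groups overlapping in both genotypes.

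At 3 h against 0 h the log2 fold change of Cacna1h was 0.31 in WT (SE 0.08, 95% interval 0.14 to 0.48, 1.24-fold, unadjusted edgeR p 0.00197, adjusted p 0.421) and 0.33 in mutants (SE 0.09, 95% interval 0.12 to 0.53, 1.26-fold, unadjusted p 0.00421, adjusted p 0.355). DESeq2 gave adjusted p of 0.0437 in WT and 0.0569 in mutants with the same log2 fold changes, so the call in WT rests on the tool. The genotype difference in this change, with the mutant 3 h library of discordant sex kept, was 0.02 (95% interval -0.24 to 0.29, unadjusted edgeR p 0.851). This interval includes differences almost as large as the change itself. At 1 h against 0 h the change of Cacna1h was 0.22 in WT (SE 0.08, unadjusted edgeR p 0.0213, adjusted p 0.922) and 0.18 in mutants (unadjusted p 0.122). Without the libraries of discordant sex the change was 0.39 in mutants at 3 h (SE 0.09, unadjusted edgeR p 0.000671, adjusted p 0.146) and 0.19 in WT at 1 h (SE 0.09, unadjusted p 0.0468). Between genotypes, Cacna1h at 3 h was at 0.11 (SE 0.07, unadjusted p 0.115), and at 0.17 (SE 0.05, unadjusted p 0.00625, adjusted p 0.465) without the mutant library of discordant sex.

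A fit of both genotypes together was added after these values had been seen, and it uses the same libraries, so it narrows the estimate and is no independent evidence. Over 24 libraries, with genotype and labelled sex as covariates, Cacna1h exceeded its naive level at 3 h by 0.32 (SE 0.06, 95% interval 0.19 to 0.45), or 1.25-fold (1.14 to 1.36), with an unadjusted edgeR p of 3.86e-05 and an adjusted p of 0.0154. It was the only one of the 8 subunits called, where 1.57% of all 17926 genes tested were called. With each of the 24 libraries left out in turn the log2 fold change was 0.29 to 0.35 and the adjusted p 0.00259 to 0.0345. The fit holds the WT libraries through which the gene was chosen, so these values are a description, and in mutants alone edgeR did not call Cacna1h. Without the mutant 3 h library of discordant sex it was 0.35 (SE 0.06, adjusted p 0.0043). At 1 h against 0 h in the same kind of fit Cacna1h was at 0.20 (SE 0.07, unadjusted p 0.00827, adjusted p 0.192) and Cacna1i at 0.09 (SE 0.04, unadjusted p 0.0268, adjusted p 0.309), neither called, with 1.05% of all genes called. At 3 h against 1 h Cacna1h was at 0.11 (unadjusted p 0.0573), also not called, with 0.486% of all genes called.

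**Figure D4:**
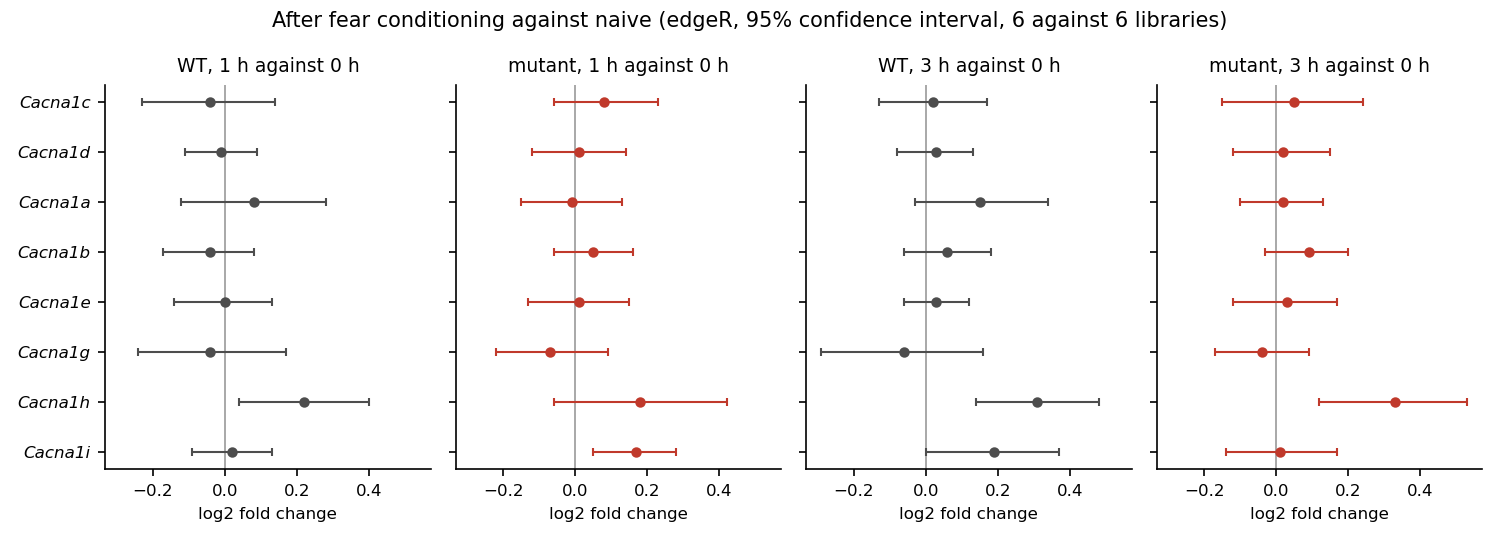
Log2 fold change after fear conditioning against naive mice (x axis) for each subunit (rows), at 1 h and 3 h in WT (grey) and mutant (red), from edgeR on 6 against 6 libraries; bars are 95% confidence intervals. At 3 h the interval of Cacna1h lies above 0 in both genotypes (0.14 to 0.48 and 0.12 to 0.53), and the 2 genotypes share no libraries in these panels.

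No dentate granule cell marker was called at 3 h against 0 h. At 3 h the summed level of that list had a median of 439.9 CPM in WT and 445 CPM in mutants, with median log2 fold changes over its 5 genes of 0.16 and 0.21 against the naive groups. Of these genes, 4 of 5 were above 0 in WT and 3 of 5 in mutants. At an unadjusted p under 0.05 were 1 of 5 in WT and 2 of 5 in mutants, all of them higher, where 8.23% and 8.57% of all genes passed in either direction. Maml2 was at 0.55 and 0.65. Across the 36 libraries after subtracting group means, Cacna1h and the list had r = 0.49 (Spearman rho 0.41), as a description of libraries that share depth and dissection. Cacna1h transcripts are rich in G and C (60.0%, the 95.3 percentile of 17098 genes). A score of GC bias per library had medians of -0.04 at 0 h and 0.06 at 3 h in WT and of -0.05 and -0.01 in mutants. Within groups the correlation of Cacna1h with this score was 0.14 and with depth 0.08, which does not bear on shifts between groups. Other lists also differed at 3 h against 0 h, with no gene called. Astrocyte markers were below 0 in 4 of 4 in both genotypes (median -0.06 in WT and -0.04 in mutants). Of choroid plexus markers 4 of 5 were below 0 in WT (-0.24) and 5 of 5 above 0 in mutants (1.28). Of striatum markers 4 of 5 were above 0 in WT (0.11) and 5 of 5 below 0 in mutants (-0.38). The part of the dentate and other markers, GC bias and depth in the Cacna1h values was not tested.

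Cacna1i was called by neither tool in the pairwise time comparisons, and its estimates differed by time in the 2 genotypes. In mutants it exceeded the naive level at 1 h by 0.17 (SE 0.05, unadjusted edgeR p 0.00762, adjusted p 0.241). At 3 h the mutants were lower than at 1 h by estimate (-0.15, SE 0.06, unadjusted edgeR p 0.0203). That value includes mutant 3 h female 2, of discordant sex, the lowest of its group at 72.7 CPM. In WT the difference from 0 h was 0.02 at 1 h and 0.19 (SE 0.09, unadjusted p 0.0524) at 3 h. Without WT 3 h male 2, the highest library at 118 CPM, the 3 h value was 0.12 (SE 0.08, unadjusted p 0.152). Comparisons of 1 h and of 3 h with 0 h share the same 6 naive libraries within a genotype. In mutants at 1 h against 0 h no marker was called. Above 0 were 5 of 5 CA1 markers (median 0.07, 1 at an unadjusted edgeR p under 0.05) and 4 of 5 dentate markers (0.20, 2). Below 0 were 5 of 5 striatum markers (-0.48, 3) and 5 of 5 choroid plexus markers (-0.73, 0), where 11.1% of all genes passed. The part of these markers in the Cacna1i values was not tested.

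For the other 6 subunits, the 72 log2 fold changes over the 12 comparisons ran from -0.14 to 0.15, with 95% confidence intervals within -0.35 and 0.36 (0.785-fold to 1.28-fold). Cacna1c, the main L-type subunit of the forebrain, had group medians of 96.9 to 104 CPM, and Cacna1d of 69.5 to 74.3 CPM. Cacna1b, the N-type subunit, had medians of 113 to 124 CPM and Cacna1e, the R-type subunit, had its lowest median of 449 CPM in WT at 1 h. Cacna1e was the most abundant undivided by length, at 470.5 CPM on average, and its 6 group means were the closest together of the 8, spanning 0.06 on the log2 scale, the 18.5 percentile among genes of like level. For Cacna1h that span was 0.42, the 99.1 percentile, for Cacna1i 0.20, the 85.4 percentile, for Cacna1g 0.18, the 79.4 percentile, and for Cacna1a 0.17, the 79.6 percentile. The spans of Cacna1h and Cacna1i hold the contrasts known when the list was drawn up, so their percentiles are a description. The SD within groups of Cacna1h, Cacna1i, Cacna1g and Cacna1a was also high among genes of like level, at the 93.4, 80.1, 90.0 and 81.0 percentile.

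The time comparisons gave the following counts. Of 8 subunits, edgeR called 0 in each of the 6 pairwise time comparisons, where the share of all genes called was 0.312% in mutants at 1 h against 0 h and 0% in the other 5. At an unadjusted p under 0.05 there was 1 of 8 in WT at 1 h against 0 h (Cacna1h; 5.36% of all genes), 1 of 8 in WT at 3 h against 0 h (Cacna1h; 8.23%), 1 of 8 in mutants at 1 h against 0 h (Cacna1i; 11.1%) and 1 of 8 in mutants at 3 h against 0 h (Cacna1h; 8.57%). At 3 h against 1 h it was 0 of 8 in WT (7.41%) and 1 of 8 in mutants (Cacna1i; 8.04%). DESeq2 called Cacna1h in WT at 3 h against 0 h, where it called 75 genes in all, and 0 of 8 in the other 5, where it called 5 to 363 genes. Over all 12 comparisons, 7 of 96 subunit values had an unadjusted p under 0.05, where the shares of all genes ran from 1.52% to 15.2% by comparison.

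Libraries of 1 group also differed among themselves. After subtracting group means, Cacna1c and Cacna1e had a correlation of 0.70 over the 36 libraries, Cacna1b and Cacna1e 0.65, Cacna1d and Cacna1e 0.59, Cacna1c and Cacna1d 0.57 and Cacna1b and Cacna1c 0.53. Among the 3 T-type genes the values were -0.14 for Cacna1g and Cacna1h, 0.22 for Cacna1g and Cacna1i and 0.20 for Cacna1h and Cacna1i. Across classes Cacna1d and Cacna1h had 0.49 and Cacna1a and Cacna1b 0.42. The libraries share depth and RNA quality across genes, and a per-library score of bias towards long transcripts had a correlation of 0.71 with Cacna1e, 0.38 with Cacna1c, 0.32 with Cacna1b and 0.20 with Cacna1d. The score of GC bias had -0.57 with Cacna1e and -0.17 to -0.28 with the other 3.

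**Figure D5:**
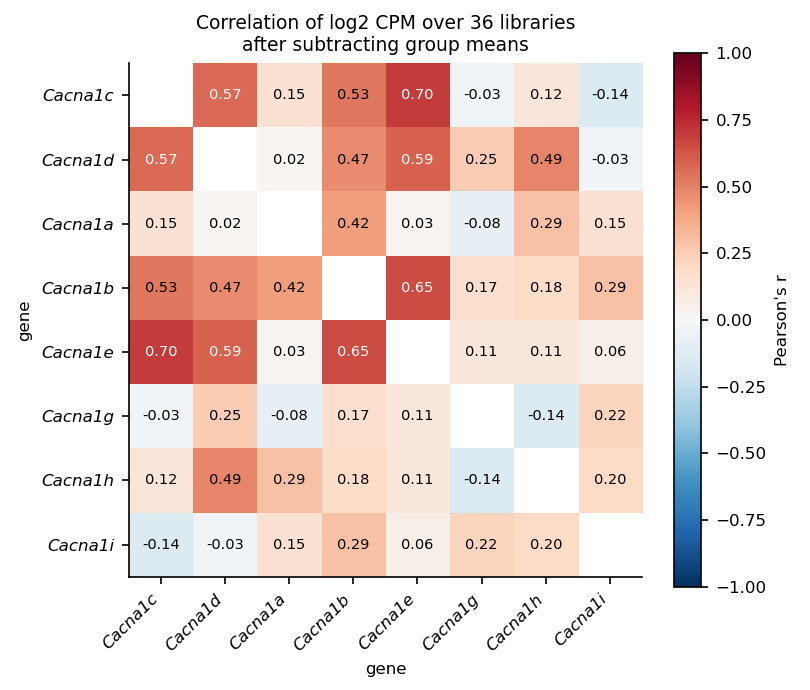
Pearson correlation of log2 CPM between each pair of subunits (rows and columns, same order) over 36 libraries after subtracting the mean of each of the 6 groups; red is positive and blue negative. Cacna1b, Cacna1c, Cacna1d and Cacna1e have values of 0.47 to 0.70 among themselves and the 3 T-type genes of -0.14 to 0.22, and Cacna1d and Cacna1h, of different classes, are at 0.49.

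The genes most like each subunit across the 36 libraries were taken by Pearson correlation after subtracting group means. Of 18185 genes compared, Lrrc7 (r = 0.86, Spearman rho 0.86), Ryr2 (0.85) and Ppp1r9a (0.84) came closest to Cacna1e, and Clstn2 (0.80, rho 0.81), Ryr2 (0.79) and Slc7a14 (0.79) to Cacna1c. Synj1 (0.85, rho 0.80), Bsn (0.79) and Pclo (0.79) came closest to Cacna1b. Bsn and Pclo encode the active zone scaffolds bassoon and piccolo, Synj1 a phosphatase of vesicle recycling, and Ryr2 a calcium release channel of the endoplasmic reticulum. Cacna1d was closest to Son (0.77), Tardbp (0.75) and Trank1 (0.74), and Cacna1a to Adgrb1 (0.74), Tmem63b (0.73) and Cdh24 (0.72).

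Among T-type genes, Cacna1h was closest to Sh3bp1 (r = 0.80, rho 0.78), Inpp5j (0.79) and Epha10 (0.78), and Cacna1g to Oprk1 (0.79, rho 0.76), Ndst3 (0.77) and Acp7 (0.77). Cacna1i had the weakest likeness of the 8, with Nr4a2 (0.61, rho 0.68), R3hdm2 (0.61, rho 0.29) and Dkkl1 (0.60, rho 0.47). Without the 2 libraries farthest from the median of Cacna1i, these were 0.59, 0.40 and 0.43. Nr4a2 is a nuclear receptor gene induced by neuronal activity.

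Marker lists of cell types gave the same kind of description. Cacna1b had r = 0.70 with the neuron list, and Cacna1c 0.56 with the CA3 list and -0.63 with the oligodendrocyte list. Cacna1e had 0.53 with the neuron list, -0.66 with the interneuron list and -0.54 with the thalamus list. Cacna1g had -0.52 with the dentate granule cell list, where Cacna1h had 0.49.

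Calcium channels also need auxiliary subunits, and these were given as lists by their counts. The beta subunits traffic and gate the pore (4 of 4 genes tested), the alpha2delta subunits raise surface density (4 of 4), and the gamma family, which includes AMPA receptor partners, had 7 of 8 genes tested. Members of the RGK family of small GTPases inhibit the channels (4 of 4), and 8 of 8 membrane and active zone partners were tested. Mean levels were 22.2 CPM per kb for Cacnb1, 48.0 for Cacnb3, 22.1 for Cacna2d1 and 89.2 for Cacng8. Between genotypes at 0, 1 and 3 h, 0 genes of these 5 lists were called by edgeR. At an unadjusted p under 0.05 were 2 of 7 gamma genes and 1 of 8 partners at 0 h, 1 gene each of the beta, alpha2delta and partner lists at 1 h, and 2 of 7 gamma and 2 of 4 RGK genes at 3 h, where 6.15%, 8.61% and 6.36% of all genes passed at 0, 1 and 3 h.

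At 1 h the smallest unadjusted p of each list was that of Cacnb1 (0.13, SE 0.04, p 0.0107), Cacna2d3 (0.13, SE 0.04, p 0.00334), Cacng4 (p 0.0752), Gem (p 0.0591) and Rims1 (0.12, SE 0.04, p 0.0106), all higher in mutants and with adjusted edgeR p above 0.05. Over all time points Cacng4, which encodes an AMPA receptor auxiliary subunit, was higher in mutants by 0.19 (SE 0.05, 1.14-fold, edgeR adjusted p 0.0468). Its lowest, median and highest levels were 7.73, 8.92 and 10.9 CPM in WT and 8.76, 10.8 and 12.4 CPM in mutants at 0 h, so that the groups overlapped, and 1 of 7 gamma genes was called in that fit, where 1.30% of all genes were called.

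After training, Gem, which encodes an activity-induced RGK inhibitor of the channels, rose in mutants at 1 h, from 2.67 ± 0.542 to 5.15 ± 0.203 CPM (mean ± SD, n = 6; log2 fold change 0.95, SE 0.13, 1.93-fold, edgeR adjusted p 0.00843), the 1 of 4 RGK genes called where 0.312% of all genes were. The WT groups held 2.79 ± 0.735 CPM when naive and 4.20 ± 1.01 CPM after 1 h, and the genotype difference in this change was 0.36 (SE 0.24, unadjusted p 0.156). All 6 immediate early genes of the list were higher at 1 h at an unadjusted p under 0.05 in both genotypes, where 5.36% of all genes in WT and 11.1% in mutants passed in either direction, with Fosb (1.37, SE 0.09, adjusted p 7.84e-06) and Egr1 (0.87, SE 0.13, adjusted p 0.0149) called in mutants, where 0.312% of all genes were called. The median log2 fold changes of these 6 genes were 1.14 in WT and 1.09 in mutants, against -0.01 and 0.03 for the 8 alpha1 subunits.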

How the data were processed

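The authors aligned reads with STAR 2.7.8a to mm10 and counted them with featureCounts 2.0.1. They deposited 1 file per library, which holds unnormalized counts. The annotation and strand and multi-mapping settings are not given in the sources used here. Of 27179 genes, 25275 were named from RefSeq (GRCm38.p6), and 1904 unnamed genes hold 1.284% of the counts. The 8 samples of the study's other cohort were not analysed here. No 2 of 90 library pairs within groups were identical.

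Each comparison was fitted on its own libraries (12 per pair, 24 for interactions, 36 over all times) with edgeR 4.0.16 (limma 3.58.1, R 4.3.3) by quasi-likelihood, with robust dispersion, TMM scaling, filterByExpr with a minimum count of 10, labelled sex as covariate and Benjamini-Hochberg adjustment over all genes tested. CPM uses TMM factors, and correlations use log2 CPM with a prior count of 2. Exon lengths came from GENCODE vM21 and promoters from RefSeq. The procedure was tested on simulated data for the genotype comparison at 0 h, in which DESeq2 called more unchanged genes than edgeR. Of 50 genes set there to a log2 fold change of 0.25 in size, edgeR called 4 and DESeq2 6. The other comparisons were not tested in this way.

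Named were all 8 subunits, the called or lowest-p genes of each related list, and the 3 genes most like each subunit. Members and lists were chosen with earlier results of these data known. Alternatives were DESeq2 1.42.0, RLE factors, no filter, no sex covariate, a replicate block, all 36 libraries in one fit, each library left out, and both libraries of discordant sex left out. The fits over both genotypes were chosen after seeing the data. Libraries are 1 mouse each. Figures used Python 3.11.15 and Matplotlib 3.10.9.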

Additional observations from a re-analysis of the deposited data

Results flagged for a closer look

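In 48 groups of 6 libraries (8 subunits, 6 groups), 1 library stood far from the others of its group, where chance gives about 1 in 20 groups. Cacna1e in WT at 1 h was at 553 CPM in replicate M3 and at 418 CPM in the lowest library of the group. Its gap to the next highest library was 0.64 of the whole range of the group, above Dixon's critical value for 6 samples. Cacna1e was not called in any comparison with it, nor without it between genotypes at 1 h and in WT at 1 h against 0 h; other comparisons were not run without it.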

How the results depend on the processing

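Over the alternative settings, 604 of 624 subunit log2 fold changes kept their side of an unadjusted p of 0.05. Those under it kept their direction, and those not under it moved by less than their SE, whatever their sign. A further 19 passed the threshold in addition and 1 no longer did: Cacna1a between genotypes at 3 h in the fit of all 36 libraries (-0.12, edgeR p 0.0985). Each library was left out in turn for the genotype comparisons at each time and those with 0 h within a genotype. There 656 of 672 values stayed the same by this rule and 14 passed the threshold in addition. Cacna1i in WT at 1 h against 0 h went to 0.07 from 0.02 without WT 0 h M2. The 1 value that no longer passed was Cacna1h in WT at 1 h against 0 h, without WT 1 h F3 (0.19, edgeR p 0.0501). No value changed its direction while past the threshold. The number of subunits called at an adjusted p under 0.05 was 0 in each planned comparison and changed under DESeq2 alone, to 1 between genotypes at 1 h (Cacna1i) and to 1 in WT at 3 h against 0 h (Cacna1h); the cause was not tested. Over all genes, DESeq2 called 98 where edgeR called 0 between genotypes at 1 h, 75 against 0 in WT at 3 h against 0 h, 363 against 54 in mutants at 1 h against 0 h and 556 against 237 between genotypes over all times. With a library left out, edgeR called 0 to 41 genes between genotypes at 1 h, the most without WT 1 h M1, and 0 to 18 at 3 h, the most without mutant 3 h F2, the 2 libraries of discordant sex. The main fits did not pair libraries by replicate number. Correlations of same-numbered libraries ran from -0.19 to 0.23, and in no comparison were all 6 over 0.1. The most, 4 of 6, was between genotypes at 0 h, where 4 of 6 correlated best with their own number. These values do not settle whether libraries were paired at 0 h. The replicate block left 0 subunits called in each comparison; with it Cacna1i between genotypes at 1 h had an adjusted p of 0.199. A difference that missed the threshold is bounded only by its interval.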
